A study of Mus musculus with 4 samples.

Results

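The protamines, the transition proteins and 3 further chromatin proteins of the spermatid were followed as mRNAs: Prm1, Prm2, Prm3, Tnp1, Tnp2, Hils1, H1fnt and Brdt. These 8 genes were taken by name from a count table of 21936 mouse genes, whose identifiers were given symbols through GENCODE vM21 on the GRCm38 build. All 8 held enough reads to be tested, among 14722 genes tested in all. The libraries came from RNA that was precipitated with the testis-specific serine/threonine kinase TSSK2, a component of the late chromatoid body (late-CB) of elongating spermatids, and the comparison asked which mRNAs were recovered with it.

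Both groups were made from the same material. Germ cells were isolated from testes of adult C57BL/6 mice over 8 weeks old, cross-linked with 0.2% paraformaldehyde (PFA), lysed and spun at low speed, and the pellet was taken. Complexes were then pulled from this pellet with a mouse antibody against TSSK2 (TSSK2-IP, 2 libraries) or with mouse IgG, which has no target in the cells (control IgG-IP, 2 libraries). The labels do not say whether replicates came from separate animals, so p-values measure only the spread between these libraries. Input RNA was not analysed here, and in such bulk samples fewer cells of a type and less RNA per cell cannot be told apart.

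During spermiogenesis most histones are removed from the DNA, transition proteins take their place for a short time, and protamines then pack the DNA into the sperm head. The nucleus falls silent as this happens, so the mRNAs for these proteins are made in round spermatids, held back from translation in ribonucleoprotein complexes, and used days later in elongating spermatids. Early translation of Prm1 in the mouse is known to arrest spermatid development.

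The coding sequences show how different these proteins are. The 3 below were read from the GENCODE vM21 transcripts on GRCm38 and are printed 5′ to 3′ with every arginine codon (CGN, AGA or AGG, in frame) in capitals, because arginine is what binds a protamine to DNA. Those of Prm1 and Tnp1 are complete, and that of Prm3 is its first 150 bases.
Prm1: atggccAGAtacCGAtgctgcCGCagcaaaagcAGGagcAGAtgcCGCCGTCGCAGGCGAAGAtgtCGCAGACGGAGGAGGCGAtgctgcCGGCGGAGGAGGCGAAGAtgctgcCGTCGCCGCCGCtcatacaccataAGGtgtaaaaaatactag
Tnp1: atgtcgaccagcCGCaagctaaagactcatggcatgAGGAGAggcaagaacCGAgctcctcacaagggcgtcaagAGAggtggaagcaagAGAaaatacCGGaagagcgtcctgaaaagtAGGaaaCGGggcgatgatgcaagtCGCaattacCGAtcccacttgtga
Prm3: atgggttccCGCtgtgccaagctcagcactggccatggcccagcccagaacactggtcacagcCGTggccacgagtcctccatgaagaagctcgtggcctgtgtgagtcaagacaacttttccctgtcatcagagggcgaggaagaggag
In Prm1, 28 of 51 codons (54.9%) encoded arginine. Prm2 had 38 arginine codons of 107 (35.5%), and Tnp1 had 11 of 55 (20.0%) beside 10 for lysine (18.2%). Prm3 carries the name of a protamine, but 2 of its codons encoded arginine (2.0%) and 30 (29.7%) encoded an acidic residue.

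Storage of protamine mRNAs has been traced to short sites in their 3′UTRs, so those that a search of the sense strand found are printed here in up to 30 bases, with the site in capitals. The Y-box recognition sequence TCCATCA was searched in the first 50 bases of the 3′UTR, and GCCACCTG, the core of the translational control element, in the last 50. The latter letters were chosen after these sequences had been seen.
Prm1, Y-box recognition sequence: agaatagcaagTCCATCAaaactcctgcgt
Prm1, control element core: taaggaacaatGCCACCTGtcaataaatgt
Prm2, control element core: tactgagcaaaGCCACCTGccaaataaagc
TCCATCA began at base 18 of the Prm1 3′UTR and was in 1 of the 8 windows, against 73 of 18445 transcripts (0.396%) in all. GCCACCTG was in 2 of the 8, against 15 of 18445 (0.0813%). A match is a description of the letters and not of a bound protein.

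The 4 genes Tnp2, Prm3, Prm2 and Prm1 lie side by side. On the minus strand of chromosome 16 (GRCm38), they run from Tnp2 (chr16:10787936-10788660) over Prm3 (chr16:10790505-10790914) and Prm2 (chr16:10791380-10796134) to Prm1 (chr16:10796326-10805839) within 17.9 kb. Tnp1 is at chr1:73015074-73015909, Hils1 at chr11:94967593-94968456, H1fnt at chr15:98255986-98257293 and Brdt at chr5:107331159-107387058. Reads were counted over exons. Tnp1 shares 40 exon bases with the antisense gene 1700027A15Rik, which was not in the table, and Hils1 lies within the span of Sgca on the other strand without sharing exon bases. Whether counting used the strand was not given in the sources used here, so reads of Tnp1 and its antisense partner may be mixed.

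Library totals were 4158034 and 4491749 counts in TSSK2-IP and 9858941 and 3938922 in control IgG-IP. The 2 control libraries differed widely. The TMM scaling factor was 0.652 in control replicate 1, 1.117 in control replicate 2, and 1.166 and 1.177 in TSSK2-IP. Which control is the more typical cannot be told from 2 libraries. Among the 5299 genes whose mean CPM was at least that of the lowest of the 8, 42.0% differed 2-fold or more between the control libraries and 0% between the TSSK2-IP libraries, and the SD of the log2 difference was 0.87 and 0.20. In these genes the median log2 difference between the controls was 0.75, with control replicate 1 the higher. Values without each control library are therefore given beside the results that depend on them. The germ cell markers (Ddx4, Dazl, Sycp3, Acrv1, Spaca1 and Tssk2) were all present, with summed levels of 815 and 832 in TSSK2-IP and of 1687 and 936 in control IgG-IP, in CPM (reads of a gene scaled by the TMM-adjusted size of its library). Summed Sertoli cell markers (6 genes) were 48.5 and 35.96 against 16.2 and 39.3 CPM, Leydig cell markers (5 genes) 35.4 and 34.6 against 14.4 and 33.3 CPM, and macrophage and endothelial markers (4 genes) 15.5 and 25.3 against 13.3 and 24.1 CPM. None of these markers was at 0 in all libraries, and their part in the results was not tested.

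The chromatin mRNAs were abundant in both precipitates, and none passed the test between them. With 2 libraries a group the test can miss real differences, so a gene that was not called is not shown to be unchanged. A call needed a log2 fold change of 1 or more, or of -1 or less, and an adjusted p of at most 0.05 (edgeR's quasi-likelihood test, Benjamini-Hochberg adjustment over all genes tested). Of the 8 genes, 0 were called higher and 0 lower in TSSK2-IP, where 102 of all genes tested (0.693%) were higher and 0 (0%) lower. No member reached an unadjusted p of 0.05 in edgeR's test either. DESeq2 called 0 of the 8, but it gave no adjusted p for Prm3 and Hils1, so these could not be called. Among the other members, its test gave the lowest adjusted p to Brdt (0.112, log2 fold change -1.09), followed by Prm2 (0.119, -0.97). DESeq2 adjusted over 1064 genes, so these values are not on the footing of edgeR's. In 1 member the TSSK2-IP libraries were both above the 2 controls, as in 27.3% of all genes tested, and in 4 members both were below, as in 21.6%. The median log2 fold change of the 8 was -0.18, beside -0.02 over all genes tested, and it was -0.09 without control replicate 1 and -0.30 without control replicate 2. All genes tested include many that are less abundant. The members lie in exon length classes of up to 700, 701 to 1500 and 3001 to 6000 bases. Genes there with a mean CPM at least that of the lowest member had medians of -0.02, -0.28 and -0.39.

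**Figure D1:**
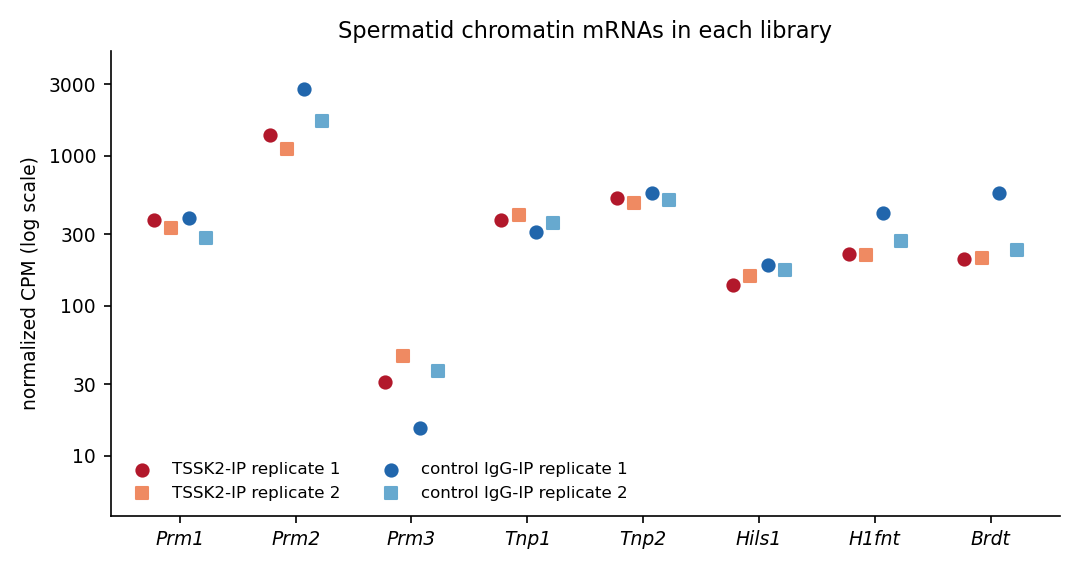
Level of each of the 8 mRNAs (x axis) in each library, in CPM with TMM-scaled library sizes on a log axis, where each point is 1 library, red for TSSK2-IP and blue for control IgG-IP. The TSSK2-IP points lie close together for most genes, while control replicate 1 (dark blue circle) is far from control replicate 2 for Brdt (568 against 236 CPM) and for Prm3 (15.4 against 36.8 CPM).

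Levels of different genes were compared per length, as CPM divided by kilobases of merged exon (RPKM). Per length, the 8 stood between the 94.7th percentile (Brdt) and the 99.99th (Prm2) of the genes tested. Prm2 was the most abundant of the 8 in both groups, at 1379 ± 206 RPKM in TSSK2-IP and 2504 ± 869 RPKM in control IgG-IP (mean ± SD, n = 2 here and below). In TSSK2-IP it was followed by Tnp2 (905 ± 47.4 RPKM) and Tnp1 (884 ± 50.8 RPKM), whose libraries overlapped, and then by Prm1 (615 ± 57.9 RPKM). Hils1 (171 ± 18.2 RPKM) and H1fnt (168 ± 0.505 RPKM) also overlapped each other, above Prm3 (95.03 ± 26.4 RPKM) and Brdt (40.4 ± 0.82 RPKM). In control IgG-IP the 4 most abundant stood in the same order, with no overlap between neighbours, at 959.9 ± 71.9 RPKM for Tnp2, 758 ± 75.7 RPKM for Tnp1 and 586 ± 123 RPKM for Prm1. Below them, H1fnt (262 ± 80.5 RPKM) overlapped Hils1 (208 ± 12.3 RPKM), and Brdt (78.5 ± 45.9 RPKM) overlapped Prm3 (63.7 ± 36.8 RPKM). The RPKM of Prm1, Prm2 and Brdt depends on the gene model, since merging their isoforms gives a longer exon length than the longest transcript does.

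Prm1, the protamine that all mammalian sperm use, held 1240 to 2463 counts in a library. Its level was 375 and 328 CPM in TSSK2-IP and 384 and 285 CPM in control IgG-IP. The groups overlapped, and both the highest and the lowest library were controls. The mean was 351 ± 33.1 against 335 ± 70.3 CPM, a log2 fold change of 0.07 with a standard error (SE) of 0.59 and an adjusted p of 0.972 by edgeR's quasi-likelihood test.

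Prm2, whose product is made as a longer precursor and trimmed on the DNA, was the most deeply counted of the 8, with 5794 to 17867 counts. It stood at 1363 and 1103 CPM in TSSK2-IP and at 2788 and 1689 CPM in control IgG-IP. Both TSSK2-IP libraries were below both controls, and control replicate 1 was the highest. The means were 1233 ± 185 and 2238 ± 777 CPM, and the log2 fold change of -0.86 (SE 0.94) had an adjusted p of 0.697 by edgeR's test. Without control replicate 1 the log2 fold change was -0.45, short of the fold threshold although its adjusted p was 0.000265, and without control replicate 2 it was -1.23.

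Prm3, which codes for the small acidic protein shown above, was the least counted, with 99 to 245 counts. Its levels were 31.3 and 46.6 CPM in TSSK2-IP and 15.4 and 36.8 CPM in control IgG-IP. The groups overlapped, and control replicate 1 was the lowest library. Its exact 95% Poisson interval, 12.6 to 18.8 CPM, did not reach that of control replicate 2, 31.3 to 42.9 CPM, so the gap between the controls was larger than counting error. The same held for TSSK2-IP, with intervals of 26.5 to 36.7 CPM in replicate 1 and 41.0 to 52.8 CPM in replicate 2. The log2 fold change was 0.59 (SE 0.46, adjusted p 0.575 by edgeR's test), which was the highest of the 8. Without TSSK2-IP replicates 1 and 2 it was 0.84 and 0.27. It was 0.09 without control replicate 1 and 1.29 without control replicate 2, where the gene passed both thresholds (adjusted p 1.61e-06).

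Tnp1, the lysine- and arginine-rich transition protein that is conserved among mammals, was the 1 member above both controls. It measured 371 and 402 CPM in TSSK2-IP and 308 and 355 CPM in control IgG-IP. The lower TSSK2-IP library and the higher control library were 371 and 355 CPM, so the separation was narrow. The log2 fold change was 0.22 (SE 0.60, adjusted p 0.894 by edgeR's test), and it was 0.13 and 0.28 without control replicates 1 and 2.

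Tnp2, the larger transition protein, varied least over the 4 libraries. It was at 519.7 and 483 CPM in TSSK2-IP and at 559.97 and 504 CPM in control IgG-IP, in overlapping groups. Its log2 fold change was -0.09 (SE 0.65, adjusted p 0.966 by edgeR's test), and 0.34 when scaled by library totals alone. It was -0.00 and -0.21 without control replicates 1 and 2. The 2 control libraries differed by 0.15 on the log2 scale, against 0.43 for Prm1 and 0.72 for Prm2 of the same cluster.

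Hils1 and H1fnt are linker histones made in spermatids, where H1fnt is needed for normal chromatin condensation. Hils1 was at 137 and 159 CPM in TSSK2-IP and at 187 and 172 CPM in control IgG-IP. H1fnt was at 219.95 and 219 CPM in TSSK2-IP and at 417 and 268 CPM in control IgG-IP. Both were below both controls, Hils1 by a small gap and H1fnt with control replicate 1 far above the rest. The log2 fold changes were -0.28 (SE 0.49, adjusted p 0.825) for Hils1 and -0.64 (SE 0.57, adjusted p 0.621) for H1fnt by edgeR's test. Scaled by library totals alone, which moved the median of all genes tested to 0.37, Hils1 was at 0.14. Without control replicates 1 and 2, Hils1 was at -0.21 and -0.39 and H1fnt at -0.29 and -0.98. Sgca, within whose span Hils1 lies, had 23 to 40 counts a library against 660 to 1199 for Hils1.

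Brdt codes for a bromodomain protein that binds acetylated histones, switches on meiotic and spermatid genes and takes part in histone removal. Its mRNA is the longest of the 8, with 5115 merged exon bases in 19 exons. It stood at 204 and 209.5 CPM in TSSK2-IP and at 568 and 236 CPM in control IgG-IP. Both TSSK2-IP libraries were below both controls, but control replicate 2 was close to them. The log2 fold change was -0.96 (SE 0.62, adjusted p 0.497 by edgeR's test), the lowest of the 8. It was -0.18 without control replicate 1 and -1.51 without control replicate 2.

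**Figure D2:**
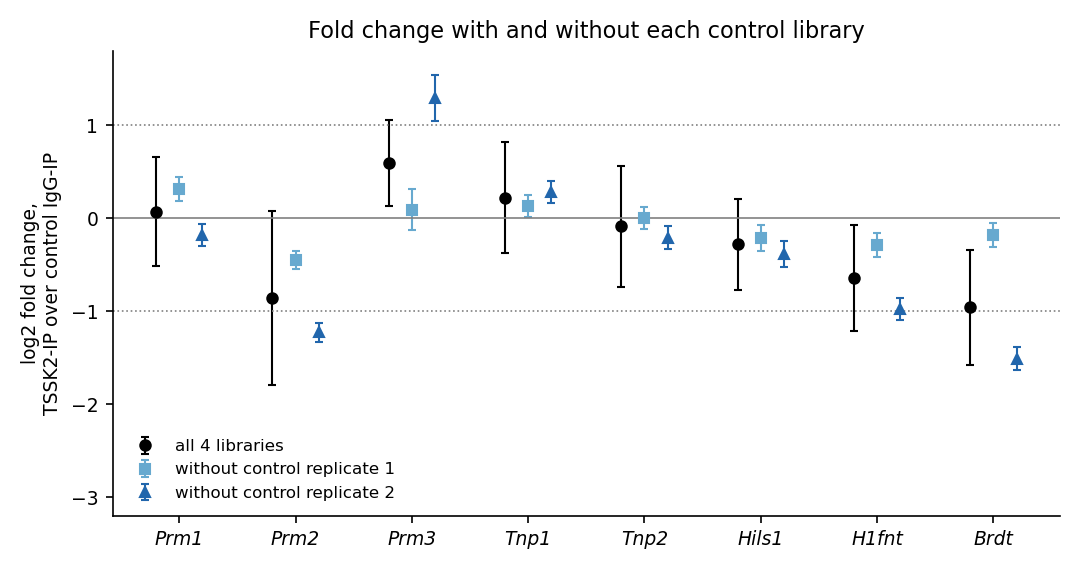
Log2 fold change of each mRNA, TSSK2-IP over control IgG-IP, from edgeR with all 4 libraries (black), without control replicate 1 (light blue) and without control replicate 2 (dark blue), with bars of 1 SE and dotted lines at the fold threshold. Prm3 and Brdt depend most on the control used, from 0.09 to 1.29 and from -0.18 to -1.51.

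The controls set the size of these values. Without control replicate 2, Prm3 was called higher (1 of 8, against 19.4% of all genes tested) and Prm2 and Brdt lower (2 of 8, against 17.9%). Without control replicate 1, 0 of the 8 were called in either direction, against 5.47% higher and 2.16% lower of all genes tested. In these fits the lone control library is assumed to vary as the TSSK2-IP libraries did, which makes the SE small (0.10 to 0.25 for the 8). Prm2, Hils1, H1fnt and Brdt kept negative log2 fold changes in both, from -0.45 to -0.18 without control replicate 1, and Prm3 and Tnp1 kept positive ones. Prm1 was at 0.31 without control replicate 1 and at -0.18 without control replicate 2.

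Ratios of counts inside a library do not depend on scaling between libraries. With 2 libraries against 2, the smallest p that a two-sided exact permutation test can give is 0.333, so these ratios cannot pass a threshold. Prm2 had 3.64 and 3.36 reads for each Prm1 read in TSSK2-IP and 7.25 and 5.93 in control IgG-IP. Both TSSK2-IP ratios were below both control ratios, and the TSSK2-IP libraries were closer to each other than the control libraries were. On the log2 scale the means were 1.81 ± 0.08 and 2.71 ± 0.21, a difference of -0.91 (exact permutation p = 0.333) that stayed between -1.05 and -0.76 when any 1 library was left out. As a share of the reads of both genes, Prm2 took 78.4% (95% Wilson interval 77.6 to 79.3%) and 77.1% (76.1 to 78.0%) in TSSK2-IP against 87.9% (87.4 to 88.3%) and 85.6% (84.8 to 86.3%) in control IgG-IP. These intervals cover counting error only, and those of the control libraries did not overlap each other. The 2 genes are neighbours and are made in the same cells.

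Brdt was the common denominator of the other ratios. Prm1 over Brdt was 1.84 and 1.56 in TSSK2-IP and 0.677 and 1.21 in control IgG-IP. Tnp1 over Brdt was 1.82 and 1.92 against 0.543 and 1.51. Tnp2 over Brdt was 2.55 and 2.30 against 0.987 and 2.14. In these 3 ratios both TSSK2-IP libraries were above both controls, by log2 differences of means of 0.91, 1.05 and 0.74 (exact permutation p = 0.333 for each of the 3), and control replicate 1 was the lowest library each time. Without control replicate 1 the differences were 0.49, 0.31 and 0.18, and without control replicate 2 they were 1.33, 1.78 and 1.30, so their size depended on the control used. They share the Brdt counts and are not separate results. Prm2 over Brdt did not separate the groups, at 6.70 and 5.26 against 4.91 and 7.17 (log2 difference 0.00, exact permutation p = 1.0, and -0.27 and 0.27 without control replicates 1 and 2). The 5 ratios were 1 family, and with p-values of 0.333 and above no adjustment could bring any under a threshold.

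**Figure D3:**
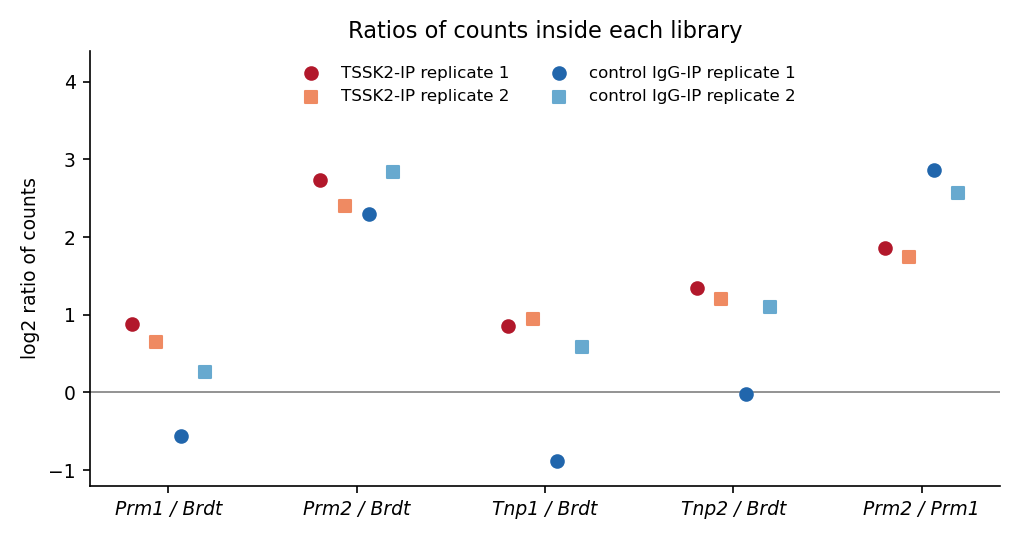
Log2 ratio of the counts of 2 genes inside each library for 5 pairs (x axis), with 1 point a library, red for TSSK2-IP and blue for control IgG-IP. The Prm2 to Prm1 ratio lies lower in both TSSK2-IP libraries (1.86 and 1.75) than in both control libraries (2.86 and 2.57), and control replicate 1 is the lowest point in each ratio to Brdt.

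The 8 genes, which were chosen with earlier results known, fell nearly into an order by length. From Prm3 (410 merged exon bases) through Tnp1 (437), Tnp2 (554), Prm1 (571), Hils1 (864), Prm2 (894) and H1fnt (1308) to Brdt (5115), the log2 fold change went from 0.59 to -0.96. It did not fall at every step, since Prm1 (0.07) lay above Tnp2 (-0.09) and H1fnt (-0.64) above Prm2 (-0.86). Over the 8 genes, Pearson's r between log2 length and log2 fold change was -0.83 and Spearman's rho -0.95, as a description across genes that share 4 libraries and, for 4 of them, a locus. The difference between the control libraries ran with length in the same genes (r 0.79, rho 0.90), from -1.25 in Prm3 to 1.27 in Brdt on the log2 scale. Both relations use the same control libraries and are not separate results. Without control replicate 1 the relation of length and log2 fold change was looser (r -0.52, rho -0.67), and without control replicate 2 it was r -0.80 and rho -0.95. For GC content and log2 fold change the values were r 0.21 and rho 0.14, and for log2 mean CPM they were r -0.63 and rho -0.24. Over 14710 genes tested that had a length, the relation of length and log2 fold change was weak (r -0.08, rho -0.06). The median log2 fold change was 0.31 in the 152 genes tested of up to 700 exon bases, where 4 members lie, and -0.04 in the 5714 of 3001 to 6000 bases, where Brdt lies. Among genes whose mean CPM was at least that of the lowest member, these medians were -0.02 (31 genes) and -0.39 (1857 genes), and over the 5 length classes they were -0.02, -0.28, -0.52, -0.39 and -0.21, which did not follow length throughout.

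**Figure D4:**
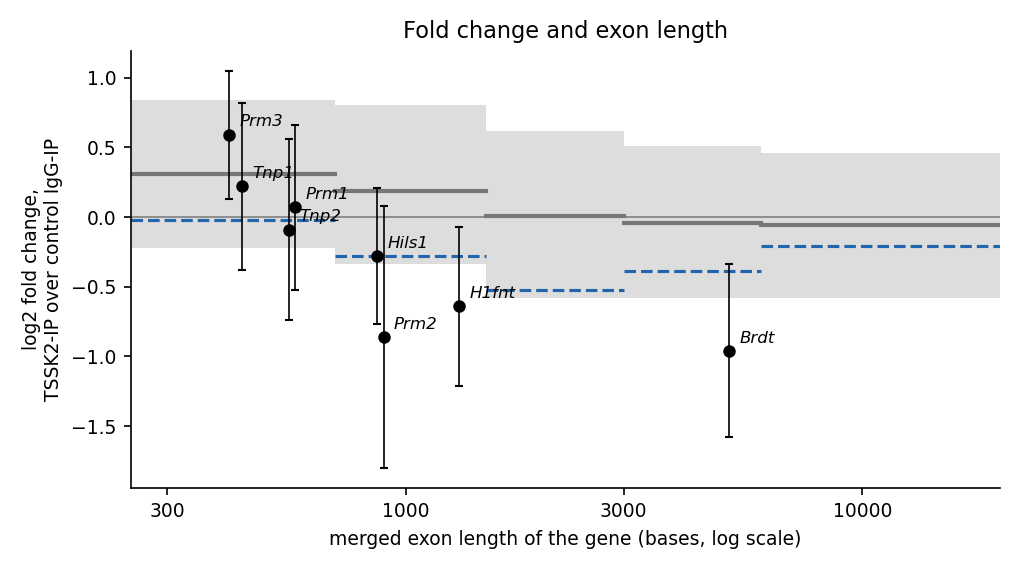
Merged exon length in bases (x axis, log scale) and log2 fold change of the 8 mRNAs (points, bars of 1 SE), over the median (grey line) and the middle 50% (grey band) of all genes tested in 5 length classes and the median of the genes as abundant as the members (dashed blue line). The members range from 0.59 in Prm3 to -0.96 in Brdt, while the class medians go from 0.31 to -0.06 over all genes tested and lie between -0.02 and -0.52 over the abundant ones.

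The 8 did not share a single profile over the 4 libraries. Of 5310 other genes whose mean log2 CPM, in place of the mean CPM used above, was at least that of the lowest member, 4633 lay nearer to the mean profile of the 8 (log2 CPM, each gene centred, Euclidean distance) than the farthest member, Prm3, did (1.41). Those nearest to that mean were Dnah7c (0.032), Mgat4e (0.048), Stard9 (0.050), Ifitm7 (0.055) and Plxnb2 (0.056). Dnah7c has close paralogs that may share its reads.

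Genes related to the 8 by function or by late translation were taken from 4 lists, and 0 genes of any list passed both thresholds in either direction. The lists are not fully separate, since Tssk6 is among both the histone exchange factors and the other late-translated mRNAs. The counts below of genes above or below both controls stand beside 27.3% above and 21.6% below over all genes tested. These shares cover genes of every level, and shares over abundant genes alone were not computed. Among genes as abundant as the members, the medians by length class lay between -0.02 and -0.52, below the median of all genes tested in most classes. A low list median is therefore not shown to be particular to its list. Of 26 histone exchange factors (among them acetyltransferases, ubiquitin ligases, readers and remodellers), all tested, 6 lay above both controls and 12 below both, with a median log2 fold change of -0.34 (-0.02 without control replicate 1 and -0.66 without control replicate 2). The highest were Rnf8, a ubiquitin ligase of the DNA damage response (log2 fold change 1.28, SE 0.49), and Ep300, an acetyltransferase (0.79, SE 0.51). The lowest were Phf7, a ubiquitin ligase for histone H2A needed for histone removal (-2.09, SE 1.12), and Kat8, an acetyltransferase for histone H4 (-1.63, SE 0.59). Adjusted p in the list was 0.28 or above by edgeR's test. Without control replicate 1 the log2 fold changes were 0.71 for Rnf8, 0.43 for Ep300, -0.73 for Phf7 and -0.34 for Kat8. Without control replicate 2 they were 2.14, 1.22, -2.82 and -2.34 in the same order. For Phf7, control replicate 1 held 6064 CPM beside 1474 CPM in control replicate 2 and 954 and 823 CPM in TSSK2-IP.

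Of 15 spermatid and replacement histones, 12 were tested, 4 lay above both controls and 1 below both, and the median log2 fold change was 0.27 (0.11 without control replicate 1 and 0.29 without control replicate 2). The highest were the variants H2afz and H2afx (0.69 each, SE 0.39 and 0.42), and the lowest were H2afy, the macro-domain histone (-0.74, SE 0.44), and H2al1m (-0.50, SE 0.53), which belongs to a multicopy family whose reads may be shared. H2afy was at -0.18 and H2al1m at 0.01 without control replicate 1, and at -1.19 and -0.9 without control replicate 2. H2afx was at 0.68 and 0.64 without control replicates 1 and 2. H2afz was at 64.1 and 66.6 CPM in TSSK2-IP and at 41.3 and 39.5 CPM in control IgG-IP, with close libraries in both groups. Its log2 fold change was 0.73 and 0.61 without control replicates 1 and 2, and its adjusted p was 0.443 by edgeR's test.

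Of 22 regulators of protamine and transition protein expression, all tested, 7 lay above both controls and 9 below both. The median log2 fold change was -0.27, and it was -0.02 and -0.57 without control replicates 1 and 2. The highest were Paip2b, which restrains poly(A)-binding protein (1.12, SE 0.48), and Ythdf3, a reader of N6-methyladenosine in mRNA (1.02, SE 0.41). The lowest were Ybx1, a Y-box protein that binds mRNA (-1.87, SE 0.91), and Pabpc2, a testis poly(A)-binding protein (-1.78, SE 0.84). Adjusted p in this list was 0.325 or above by edgeR's test. The log2 fold changes without control replicate 1 were 0.63 for Paip2b, 0.81 for Ythdf3, -0.72 for Ybx1 and -0.63 for Pabpc2. Without control replicate 2 they were 1.82, 1.2, -2.56 and -2.46 in the same order. Ybx1 was at 515 and 492 CPM in TSSK2-IP and at 2862 and 830 CPM in control IgG-IP.

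Of 20 other mRNAs that are translated late in spermatids, all tested, 0 lay above both controls and 15 below both, and the median log2 fold change was -0.86 (-0.27 without control replicate 1 and -1.29 without control replicate 2). The lowest were the sperm tail genes Akap4 (-1.74, SE 1.11), of the fibrous sheath, and Odf2 (-1.53, SE 1.34), of the outer dense fibres. The highest were Tsga8 (0.26, SE 0.43) and Tssk6, a kinase of the TSSK family needed for DNA condensation (0.04, SE 0.44). The lowest adjusted p was 0.364 by edgeR's test. Akap4 was at -0.65, Odf2 at -0.60, Tsga8 at -0.12 and Tssk6 at 0.05 without control replicate 1. Without control replicate 2 they were at -2.4, -2.14, 0.73 and -0.02 in the same order. Akap4 was at 1164 and 1146 CPM in TSSK2-IP and at 5879 and 1823 CPM in control IgG-IP.

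**Figure D5:**
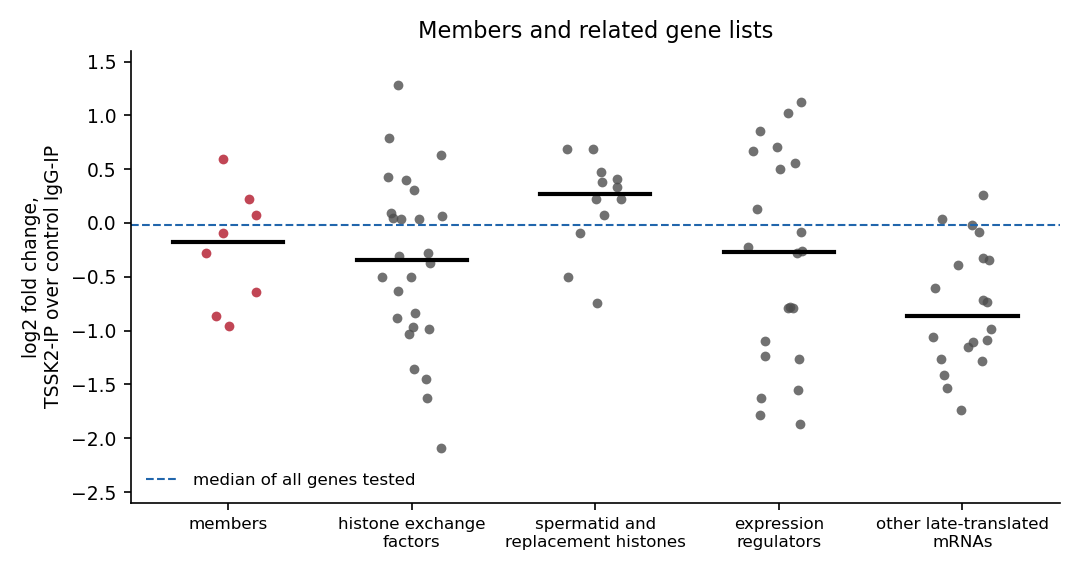
Log2 fold change, TSSK2-IP over control IgG-IP, of every gene tested among the 8 members (red) and 4 related lists (grey), where each point is 1 gene, black bars are list medians and the dashed line is the median of all genes tested (-0.02). That line covers genes of every level and is not matched for abundance. The median of the members is -0.18, between that of the spermatid and replacement histones (0.27) and that of the other late-translated mRNAs (-0.86).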

How the data were processed

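RNA from 2 TSSK2-IP and 2 control IgG-IP samples of mouse germ cells was sequenced by the authors as directional paired-end libraries without removal of rRNA. Per the labels, Trimmomatic 0.39, STAR 2.7.10a (on GRCm38) and featureCounts 2.0.3 were the tools for trimming, mapping and counting. Settings for strand and shared reads were not given in the sources used here. The deposited values are raw counts per gene, with no normalization, and no column of other samples was in the table. Because rRNA was kept and counts cover genes only, the totals understate sequencing depth. Of 21936 identifiers, 21817 were found in GENCODE vM21.

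Samples were grouped by their titles. Counts were filtered with filterByExpr, scaled by TMM and tested with edgeR 4.0.16 (glmQLFit and glmQLFTest, R 4.3.3) with Benjamini-Hochberg adjustment over 14722 genes. Calls needed a log2 fold change of 1 or more, or of -1 or less, and an adjusted p of at most 0.05, the thresholds of the study, which used DESeq2. CPM used TMM library sizes (1 count is 0.156 to 0.230 CPM), and RPKM the merged exons of each gene. The SE was worked back from the test, as the absolute log2 fold change over the square root of the F statistic. It rests on a dispersion moderated across genes, so it need not follow the spread of a gene's own libraries. The fit was tested on simulated data. Alternatives were DESeq2 1.42.0, its size factors, upper-quartile and total scaling, no filter, a minimum of 10 counts in every library, a test against a 2-fold change, leaving out mitochondrial genes, Lars2 and small RNAs, a replicate block, leaving out each library, and, for RPKM, the longest transcript.

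The 8 genes and the lists were chosen with earlier results of these data known. Named genes were the 8, from each list the genes past both thresholds or otherwise the 2 highest and 2 lowest log2 fold changes, and the 5 nearest profiles. The check of the labelled tissue used marker lists.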

Additional observations from a re-analysis of the deposited data

How the results depend on the processing

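The log2 fold changes of the 8 genes were computed under 12 alternatives, 96 values in all, of which 87 kept their direction and their side of the thresholds, 3 passed both thresholds (Prm2, Prm3 and Brdt without control replicate 2) and 6 changed sign. The latter were Prm1 (-0.02 with DESeq2, -0.06 with DESeq2 size factors, -0.03 without TSSK2-IP replicate 1 and -0.18 without control replicate 2, in a range of -0.18 to 0.31 over libraries left out) and, with library totals alone, Tnp2 (0.34) and Hils1 (0.14). Library totals also put the median of the 8 at 0.24 and that of all genes tested at 0.37. DESeq2 gave no adjusted p for Prm3 and Hils1. The number of all genes called higher was 6 with DESeq2 (which gave an adjusted p to 1064 of 21267 genes), 20 with upper-quartile scaling, 5 with library totals, 283 without a filter (24 lower), 29 with at least 10 counts in every library and 32 in the test against a 2-fold change. With the replicate block it was 274 (3 lower), and 0 of the 8 genes were called. The labels do not say that the numbers pair the libraries. In the paper's co-IP method the lysate was shared out between TSSK2 and IgG beads, so libraries of the 2 groups may share a lysate. Which ones do was not stated. Deviations of same-numbered libraries correlated at r = 0.13, which cannot decide this with 2 libraries a group. The block was therefore run only as an alternative. Leaving out 1 library gave 24 to 2853 genes higher and 0 to 2637 lower, and of the 8 genes 0 to 1 higher and 0 to 2 lower. In the same fits the calls ranged from 0 to 2 higher and 0 to 10 lower among histone exchange factors, 0 to 1 lower among spermatid and replacement histones, 0 to 3 higher and 0 to 10 lower among regulators, and 0 to 12 lower among the other late-translated mRNAs, all of the highest counts without control replicate 2. With the longest transcript as length, Prm1 was at 749 (TSSK2-IP) and 713 (control IgG-IP) RPKM, Prm2 at 1829 and Brdt at 43.5 RPKM in TSSK2-IP, each moved by more than 1 SD. The cause of these shifts was not tested, except that the length alone sets the last. At 99 to 245 counts, counting error alone was 6.4% or more of a Prm3 level, and 1.3% or less of that of Prm2.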
